A study of Homo sapiens with 32 samples.

Results

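The Notch genes of HEK293 cells were followed in both count tables through 10 genes chosen by symbol: the receptors NOTCH1, NOTCH2 and NOTCH3, the ligands JAG1, JAG2 and DLL1, and the target genes HES1, HES4, HEY1 and NRARP. All 10 were found among the 57773 genes counted, and all 10 passed the filter on low counts after 6 h (18618 genes kept) and after 24 h (22174 genes kept). HEK293 is an established human embryonic kidney cell line. Every group, controls included, consisted of HEK293 cells transiently transfected with the human angiotensin II receptor AT1R and kept without serum before the stimulus. The cells were left as control or received AII (angiotensin II, 1 nmol/l), EGF (epidermal growth factor, 10 µg/l) or AII+EGF. RNA was sequenced after 6 h in 4 libraries per condition, and after 24 h in 4 control, 4 AII, 4 EGF and 3 AII+EGF libraries. In transient transfection only a part of the cells takes up the plasmid, so each value is an average over cells with and without AT1R. The labels do not say whether the libraries of a condition came from separate cultures, and p-values therefore measure the spread between these libraries.

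Notch is a contact signal between neighbouring cells. A ligand of the Jagged or Delta family on one cell binds a NOTCH receptor on the next, ADAM10 and then the gamma-secretase complex (with subunits such as PSEN2, NCSTN and PSENEN) cut the receptor, and the released intracellular domain enters the nucleus. There it binds the DNA-binding protein RBPJ together with Mastermind-like coactivators and switches on target genes. HES1, HES4 and HEY1 are transcriptional repressors of this target group, and NRARP is a small ankyrin-repeat protein that binds the intracellular domain and dampens the signal.

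Libraries held 3881841 to 8540815 counts after 6 h, and 6646227 to 33070903 after 24 h. Protein-coding genes made up 81.4% to 84.7% of the 6 h totals, but 20.8% to 63.4% after 24 h, when U1 small nuclear RNA took 8.90% to 57.2%. The biological coefficient of variation was 10.6% after 6 h and 29.1% after 24 h. The transfected receptor was present in every library, with AGTR1 at 950.1 to 1568 FPM (fragments per 1000000 after TMM normalization) after 6 h and 369 to 685 FPM after 24 h. EGR1, an immediate early gene of the EGF response, was at 2.25 ± 0.721 FPM in control and 51.5 ± 3.62 FPM with EGF after 6 h (SD, n = 4 each). After 6 h AGTR1 rose with AII+EGF, from 1096 ± 106 to 1497 ± 76.0 FPM (log2 difference 0.45, adjusted p = 0.00050, edgeR), and was at 1388 ± 93.2 FPM with AII and 1097 ± 94.6 FPM with EGF. The AII difference from control was 0.34 (unadjusted p = 0.00017, adjusted p = 0.99, edgeR). AII+EGF was 0.11 above AII (adjusted p = 0.47, edgeR), so the rise was not particular to the combined stimulus. Of the 9 HEK293 markers, NEFL, NEFM, VIM, LIN28B and CDH2 were at 20.3 FPM or more in every library, KRT8 was at 4.54 to 15.5 FPM, KRT18 at 2.10 to 8.43 FPM and INA at 1.25 to 9.81 FPM, PAX2 did not exceed 1.16 FPM, and CD3E had 0 counts in all. Of the markers of other cells, PTPRC, CDH5, DCN and LUM had at most 7 counts in a library, whereas COL1A1 was at 8.45 to 30.3 FPM.

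NRARP lies on chromosome 9 (chr9:140194083-140196723, minus strand, GRCh37) and was the member that passed the test with EGF. The bases in front of the start site are shown for it and for HES1 and HES4 because these target genes held a motif of RBPJ, the DNA-binding protein of the pathway, or of EGR factors, to which the EGF-induced EGR1 belongs. They were taken from RefSeq (GRCh38.p14), which held a promoter for 8 of the 10 members (250 bases before to 50 after the start). Capitals mark the match, GTGGGAA for RBPJ and GCGNGGGCG for EGR factors.
NRARP, chr9:137302272-137302421, minus strand: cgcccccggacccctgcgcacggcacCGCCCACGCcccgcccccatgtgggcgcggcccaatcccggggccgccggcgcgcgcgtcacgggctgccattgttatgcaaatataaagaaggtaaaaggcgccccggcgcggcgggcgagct
HES1, chr3:194136018-194136147, plus strand: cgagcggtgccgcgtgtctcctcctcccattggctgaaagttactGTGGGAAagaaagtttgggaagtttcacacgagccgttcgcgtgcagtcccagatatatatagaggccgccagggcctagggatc
HES4, chr1:1000098-1000227, minus strand: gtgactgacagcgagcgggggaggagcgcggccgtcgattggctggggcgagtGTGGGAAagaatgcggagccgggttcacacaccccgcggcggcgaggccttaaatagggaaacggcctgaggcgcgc

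Both strands were searched for each motif, and no 2 matches overlapped. The RBPJ letters stood at -85 to -79 from the start in HES1 and at -77 to -71 in HES4, and they are in 6.25% of 35116 promoters of the same length. The EGR letters stood at -124 to -116 in NRARP, read on the other strand, and also in the windows of NOTCH1, NOTCH3, JAG2 and HES4. They are in 9.43% of the promoters. The motif is almost all G and C, and the matches fell in the most GC-rich windows. Windows with a match held 75.7% (HES4) to 79.7% (JAG2) G and C, those without 59% (HES1) to 70.3% (NOTCH2). The part of base composition was not tested. Of the genes with EGR letters, only NRARP passed the test with EGF after 6 h. Log2 differences from control were -0.45 for HES4, -0.22 for NOTCH1, 0.0074 for NOTCH3 and 0.056 for JAG2. The AP-1 letters TGANTCA, found in 7.71% of promoters, the ETS letters CCGGAAGT, found in 4.14%, and the CArG box bound by SRF, found in 1.29%, had no match in the 8 windows. A match describes letters only, and no binding was measured.

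Per kilobase of exon, the target genes HES4 and NRARP were the most abundant members in control cells and the ligands JAG1 and DLL1 the least. After 6 h HES4 was at 72.2 ± 28.7 FPM per kb and NRARP at 59.7 ± 5.27 (SD, n = 4 each, as for all control and single-stimulus values here), with overlapping ranges. NOTCH2 followed at 38.3 ± 1.18 FPM per kb, apart from both its neighbours. HEY1 (19.5 ± 0.761), HES1 (17.2 ± 2.82), NOTCH1 (10.2 ± 2.55), NOTCH3 (8.31 ± 1.13) and JAG2 (7.71 ± 2.28) formed a run in which each overlapped the next. JAG1 (3.89 ± 0.369 FPM per kb) and DLL1 (3.75 ± 0.709) overlapped each other and lay below JAG2. After 24 h the control order was HES4 (51.1 ± 5.67 FPM per kb), NRARP (37.1 ± 3.40), HES1 (15.2 ± 3.47), NOTCH2 (14.98 ± 1.05), HEY1 (12.2 ± 0.792), NOTCH3 (6.13 ± 1.34), JAG2 (3.81 ± 0.764), NOTCH1 (3.11 ± 0.863), DLL1 (2.43 ± 0.413) and JAG1 (1.94 ± 0.445). Here HES1 overlapped NOTCH2, and JAG2, NOTCH1, DLL1 and JAG1 each overlapped the next. With EGF after 6 h NRARP (78.6 ± 6.34 FPM per kb) stood above HES4 (52.2 ± 7.99) without overlap. The 2 time points are separate count tables with very different shares of small nuclear RNA, so levels after 6 h and after 24 h are not compared as such.

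**Figure D1:**
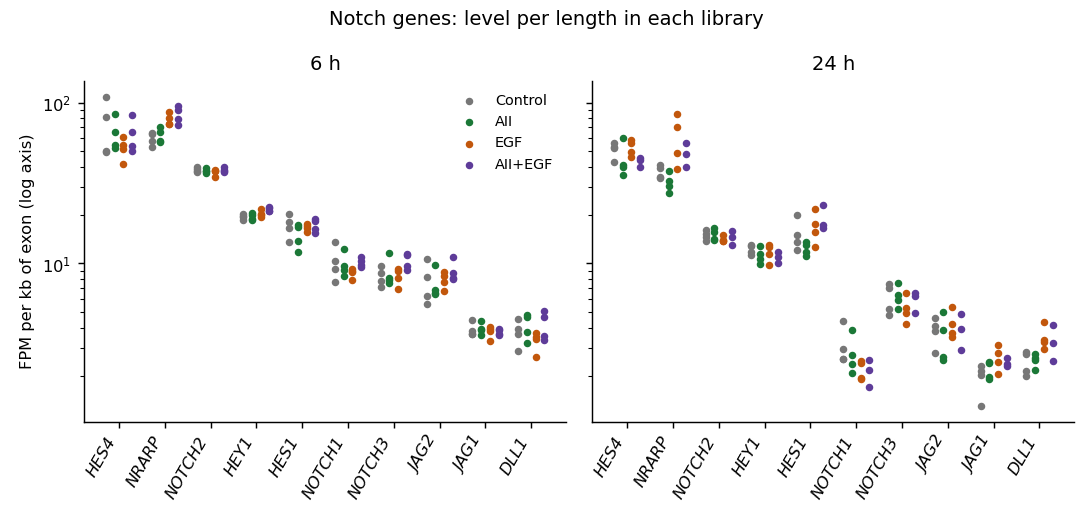
Level of each Notch gene in every library, as FPM per kb of exon on a log axis, after 6 h (left) and 24 h (right), coloured by condition. Each point is 1 library, and genes are ordered by their mean in the 6 h controls, where HES4 and NRARP are highest and DLL1 is lowest.

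Some of these levels carry limits of annotation. NOTCH2 shares near-identical sequence with the NOTCH2NL and NOTCH2P1 copies, so its counts are uncertain. For HEY1 the exons of all annotated transcripts together cover 5487 bases, the whole span of the gene, so introns may count as exon. The level of HEY1 per kb may then be too low, and its place below NOTCH2 and beside HES1 is uncertain. The strand setting of the counting is not given, and other genes overlap NOTCH1, NOTCH2, JAG1, JAG2, DLL1 (the protein-coding gene FAM120B among them) and NRARP, whereas none overlaps NOTCH3, HES1, HES4 or HEY1. For NRARP the overlapping gene is a long non-coding RNA on the opposite strand.

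NRARP was the member that rose with EGF after 6 h, with or without AII. In control it was at 170.2, 152, 141 and 168 FPM, and with AII at 152, 149, 186 and 172 FPM. With EGF the 4 libraries held 194, 195, 212 and 229 FPM. With AII+EGF they held 209, 190.3, 239 and 252 FPM. Every library with EGF, alone or combined, was above every control and AII library, while control and AII overlapped. The log2 rise over control was 0.40 for EGF, with a standard error of 0.094 and an adjusted p of 0.011 in edgeR's quasi-likelihood test with Benjamini-Hochberg adjustment. For AII+EGF it was 0.50, with the same standard error and an adjusted p of 0.0015 in edgeR. These are 1.32-fold (95% interval 1.151 to 1.505) and 1.41-fold (1.23 to 1.61), below the 1.5-fold that the call rule requires. Against AII, AII+EGF was 0.43 higher (standard error 0.094, adjusted p = 0.0052, edgeR). AII alone was 1.04-fold of control (0.912 to 1.20), and AII+EGF was 1.07-fold of EGF (0.939 to 1.22), neither of which passed the test. In bulk RNA more cells with NRARP transcripts and more transcripts per cell cannot be told apart.

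The labels number the libraries in 2 passes, called runs here, and NRARP was higher with EGF and with AII+EGF than in control in both. In the first run (replicates 1 and 2) it was 0.27 with EGF and 0.31 with AII+EGF on the log2 scale, and neither passed the test with 2 libraries per condition (adjusted p = 0.25 and 0.22, edgeR). In the second run (replicates 3 and 4) it was 0.52 and 0.67 (adjusted p = 0.035 and 0.0046, edgeR). With AII+EGF the value of the second run exceeded 1.5-fold. Whether the runs differed was not tested. The run as a block in the fit gave 0.39 and 0.49, with adjusted p = 0.0031 and 0.00033 in edgeR.

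After 24 h NRARP was at 108, 104, 91.6 and 89.3 FPM in control and at 79.9, 86.3, 99.4 and 72.6 FPM with AII. With EGF it was at 186, 224, 102 and 128 FPM, and with AII+EGF at 149, 105 and 126 FPM. The first 2 EGF libraries, from the first run, were far above control, whereas 1 of the other EGF libraries lay within the control range. The log2 difference between EGF and control, 0.70, had a standard error of 0.18 and an adjusted p of 0.23 in edgeR. For AII+EGF it was 0.37, with a standard error of 0.20 and an adjusted p of 0.96 in edgeR, so neither passed the test. Within the first run the EGF difference was 0.94 and within the second 0.34. After 24 h every count column of the first run is named filtered, and in the second run only an AII+EGF column is. Differences between the runs after 24 h therefore cannot be told apart from this naming. The EGF difference passed the test without the filter on low counts (0.69, adjusted p = 0.00092, edgeR) and with a GC offset and the run as a block (0.63, adjusted p = 0.030, edgeR). AII+EGF was above AII in every library, by 0.58 (standard error 0.20, adjusted p = 0.94, edgeR).

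**Figure D2:**
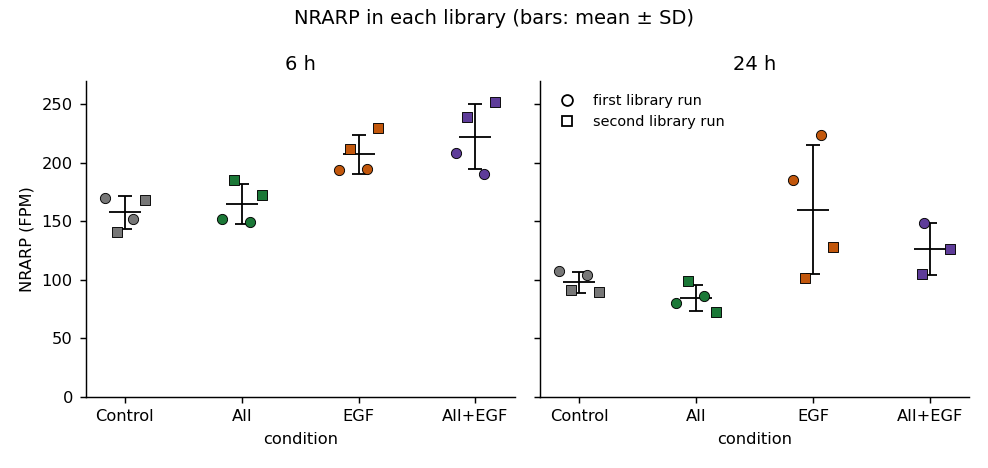
NRARP in FPM in each library after 6 h (left) and 24 h (right) by condition, with circles for the first and squares for the second run of library numbers and black bars for mean ± SD. After 6 h the EGF and AII+EGF libraries (190.3 to 252 FPM) all lie above the control and AII libraries (141 to 186 FPM), and after 24 h the EGF libraries spread from 102 to 224 FPM.

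The genes whose log2(FPM + 1) followed NRARP most closely over the 16 libraries after 6 h were SLCO4A1 (Pearson's r = 0.95), NUP88 (0.94) and TNFRSF21 (0.94). SLCO4A1, an organic anion transporter, was at a mean of 22.96 FPM in the controls, against 39.1 FPM after EGF and 40.8 FPM after the combined stimulus. These correlations describe libraries that share conditions and are given without a test. NRARP took the place of a member called by the full rule, of which there was none, a choice made after its values were seen.

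The counts of members are read against the share of all genes that did the same, and a share near it is no result about the members. The comparisons with control share the same control libraries. With EGF after 6 h, 0 of 10 members met the full call rule (FDR below 0.05, fold change above 1.5 and mean FPM above 5), which 1.73% of all genes met. NRARP alone passed the adjusted p, which 5.97% of all genes passed, and 2 members had an unadjusted p under 0.05 against 20.2% of all genes. With AII+EGF 0 of 10 members were called against a background of 1.95%, 1 passed the adjusted p against 6.1%, and 3 had an unadjusted p under 0.05 against 18.9%. For AII+EGF against AII these counts were 0, 1 and 2 members, with 1.87%, 5.93% and 19.6% of all genes. DESeq2 also passed NRARP alone in these 3 comparisons. The median log2 fold change of the 10 members was -0.04 with EGF and 0.09 with AII+EGF, and that of all genes -0.01 in both.

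No member passed the test with AII alone. After 6 h 0 of 10 members and 0% of all genes passed the adjusted p in edgeR, with 0 members at an unadjusted p under 0.05 against 4.54% of genes, and DESeq2 passed 0 members. The 95% intervals of all 10 members lay within 1.5-fold of control in either direction, the lowest bound being -0.58 (HES4) and the highest 0.49 (DLL1) on the log2 scale. AII+EGF against EGF likewise passed 0 members and 0% of genes, with 1 member (NOTCH3) and 7.26% of genes at an unadjusted p under 0.05. The interaction of AII and EGF is the part of the log2 effect of AII+EGF beyond the sum of the single log2 effects. It measures a departure from the product of the fold changes, not from the sum of the changes in FPM. For this term 0 members and 0% of genes passed, with 0 members and 8.01% of genes at an unadjusted p under 0.05. For the interaction the intervals were wide, and 4 of 10 lay within 1.5-fold.

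Among the receptors after 6 h, NOTCH3 came nearest to a difference. It was at 91.4, 66.8, 73.0 and 81.7 FPM in control, at 74.7, 76.0, 109 and 70.8 with AII and at 76.1, 65.7, 84.6 and 86.8 with EGF. With AII+EGF it was at 90.6, 85.2, 108 and 106 FPM, the 2 highest values being those of the second run, and the groups overlapped. AII+EGF differed from control by 0.32 (standard error 0.12, adjusted p = 0.14, edgeR) and from EGF by the same size (0.32, standard error 0.12, adjusted p = 0.68, edgeR). Against AII the difference was 0.23 (adjusted p = 0.31, edgeR), and without AII replicate 3, the library at 109 FPM, it was 0.40 and passed the test (adjusted p = 0.033, edgeR). NOTCH1 ranged from 95.6 to 171 FPM over the 16 libraries, with both extremes among the controls, and NOTCH2 from 577 to 668 FPM with a within-condition coefficient of variation of 3.54%. All conditions overlapped for NOTCH2. For NOTCH1 the EGF libraries (99.2, 112.5, 111 and 116 FPM) lay below the AII+EGF libraries (122, 119.9, 129 and 137 FPM), a log2 difference of 0.21 with an adjusted p of 0.70 in edgeR, which did not pass the test, and the other pairs of conditions overlapped.

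No ligand stood apart in any condition after 6 h. JAG1 ranged from 30.6 to 41.2 FPM, JAG2 from 36.0 to 70.4 FPM and DLL1 from 10.1 to 19.5 FPM over the 16 libraries. DLL1 rests on 59 to 133 counts per library, the fewest of the members. Their unadjusted p was above 0.05 in every comparison after 6 h.

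Of the repressors, HEY1 had the tightest values after 6 h. It was at 112, 108, 102 and 107 FPM in control, at 103, 103, 109 and 114 with AII and at 106, 111, 109.5 and 119 with EGF. With AII+EGF it was at 116, 117, 123 and 122 FPM, above every control and AII library and overlapping EGF. The differences were small, 0.16 against control (standard error 0.067, adjusted p = 0.17, edgeR) and 0.16 against AII (standard error 0.067, adjusted p = 0.17, edgeR). HES4 was at 122, 55.5, 55.0 and 90.6 FPM in control and at 46.7, 61.0, 57.4 and 68.1 FPM with EGF, and the groups overlapped. Its EGF difference of -0.45 (standard error 0.20, adjusted p = 0.21, edgeR) was -0.19 without control replicate 1, the library at 122 FPM (adjusted p = 0.66, edgeR). HES1 ranged from 24.4 to 41.9 FPM and had no unadjusted p under 0.05 after 6 h.

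**Figure D3:**
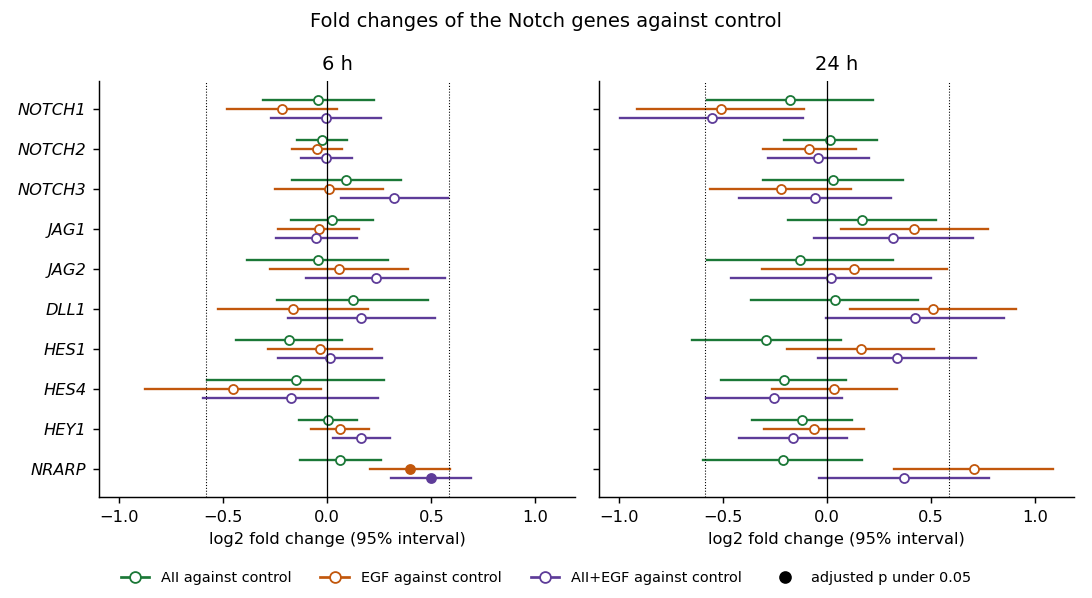
Log2 fold changes of the 10 members against control after 6 h (left) and 24 h (right) with AII, EGF and AII+EGF, with 95% intervals from edgeR. Filled points passed an adjusted p of 0.05, dotted lines mark 1.5-fold, and the only filled points are those of NRARP with EGF (0.40) and AII+EGF (0.50) after 6 h.

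After 24 h no member passed the test, and few genes did. For AII 0% of all genes met the full rule or the adjusted p, and 0 members against 2.49% of genes had an unadjusted p under 0.05. For EGF the full rule and the adjusted p each held for 0.0316% of genes and 0 members, and an unadjusted p under 0.05 for 8.48% of genes and 4 members (NRARP, DLL1, JAG1 and NOTCH1). For AII+EGF the shares were 0.0271% and 0.0271% with 0 members, and 5.4% with 1 member, NOTCH1. AII+EGF against AII gave 0.0406% by the full rule and 0.0451% by the adjusted p, with 0 members, and 4.28% at an unadjusted p under 0.05, with HES1 and NRARP. The comparison of AII+EGF with EGF held 0%, 0% and 3.37% of genes at the 3 thresholds, the interaction term 0%, 0% and 2.37%, and both had 0 members at each. DESeq2 passed 0 members in all 6 comparisons after 24 h.

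NOTCH1 had lower means after 24 h with EGF and AII+EGF, without passing the test. It was at 32.02, 32.05, 54.8 and 36.8 FPM in control, at 26.1, 29.9, 48.1 and 33.96 with AII, at 30.9, 24.1, 24.4 and 30.3 with EGF and at 21.3, 31.6 and 27.3 with AII+EGF. No EGF or AII+EGF library reached the lowest control, and AII overlapped with all. EGF differed from control by -0.51, with a standard error of 0.19 and an adjusted p of 0.46 in edgeR. AII+EGF differed by -0.55, with a standard error of 0.21 and an adjusted p of 0.85 in edgeR. Without control replicate 3, the library at 54.8 FPM, the NOTCH1 differences were -0.30 and -0.35, and in the first run alone that of EGF was -0.24.

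The ligands DLL1 and JAG1 had higher means with EGF after 24 h, again without passing the test. DLL1 was at 10.5, 8.22, 10.8 and 7.64 FPM in control and at 16.5, 11.3, 12.8 and 12.4 FPM with EGF, so that the groups did not overlap. The difference was 0.51 (standard error 0.19, adjusted p = 0.46, edgeR). The AII+EGF libraries, at 9.45, 15.8 and 12.3 FPM, overlapped with control. JAG1 was at 18.8, 19.9, 21.5 and 12.1 FPM in control and at 22.6, 29.1, 19.2 and 25.8 FPM with EGF, a difference of 0.42 (standard error 0.17, adjusted p = 0.50, edgeR) with overlapping groups. Without control replicate 4, the library at 12.1 FPM, the JAG1 difference was 0.27. HES1 was at 24.3, 22.8, 28.1 and 26.9 FPM with AII and at 47.8, 34.2 and 35.8 FPM with AII+EGF. These groups did not overlap and differed by 0.63 (standard error 0.18, adjusted p = 0.60, edgeR), whereas the controls (41.3, 30.99, 27.8 and 24.9 FPM) overlapped with both.

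Whether a stimulus acted differently after 24 h than after 6 h was tested in a joint fit of all 31 libraries. For AII 0 members and 0% of genes passed the adjusted p, for EGF 0 members and 0.173%, and for AII+EGF 0 members and 0.123%. At an unadjusted p under 0.05 there were 0 members and 3.84% of genes for AII, 2 members (DLL1 and JAG1) and 10.1% for EGF, and 2 members (HEY1 and NOTCH1) and 7.49% for AII+EGF. For NRARP the log2 effect of EGF was 0.30 larger after 24 h (standard error 0.22, adjusted p = 0.68, edgeR), and the AII+EGF effect 0.15 smaller (-0.15, standard error 0.23, adjusted p = 0.94, edgeR).

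Within conditions, several GC-rich members moved with the other GC-rich genes from library to library. The GC-rich genes were taken as the 10% of tested genes with the highest GC content in their longest transcript, and the median log2 deviation of these genes was set against that of each member, both taken from the mean of the condition. After 6 h HES4 (73.9% GC) followed the GC-rich genes with Pearson's r = 0.94, JAG2 (64.1%) with 0.93, NOTCH1 (63.3%) with 0.87 and NOTCH3 (63.1%) with 0.80, over 16 libraries. NRARP (59.2%) had r = 0.74, and DLL1 (59.5%) 0.57. The members of lower GC content had r = 0.51 for HEY1 (45%), 0.50 for HES1 (50%), 0.48 for NOTCH2 (49.4%) and -0.07 for JAG1 (49.6%). After 24 h r was 0.94 for JAG2, 0.91 for NOTCH3 and 0.89 for NOTCH1 over 15 libraries, 0.57 for HES4, 0.49 for DLL1, 0.13 for HEY1, -0.23 for HES1, -0.28 for NRARP, -0.41 for JAG1 and -0.88 for NOTCH2. Without the 2 libraries farthest from the median, the values after 6 h were 0.91 for HES4, 0.87 for JAG2, 0.74 for NOTCH1 and 0.66 for NOTCH3. These values describe libraries that share their depth and base composition.

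The mean level of the GC-rich genes was -0.086 in the EGF and 0.102 in the AII+EGF libraries after 6 h, against 0.018 in control. The ranges of the conditions overlapped, and a difference between conditions was not tested. After 6 h the median deviation of the GC-rich genes from their mean over the 16 libraries was -0.17 to 0.26 in control, -0.18 to 0.25 with AII and -0.26 to 0.03 with EGF on the log2 scale, and in the AII+EGF libraries it was -0.01 to 0.24. Control replicate 1, AII replicate 3 and AII+EGF replicate 4 were the highest, no EGF library exceeded 0.03, and these are also the highest libraries of their conditions for HES4. With the GC trend of each library removed in edgeR, NRARP was 0.48 above control with EGF (adjusted p = 7.2e-05) and 0.45 with AII+EGF (adjusted p = 0.00013), and 0.37 above AII with AII+EGF (adjusted p = 0.0012). NOTCH3 was then 0.25 above control with AII+EGF (adjusted p = 0.060, edgeR) and 0.14 above EGF (adjusted p = 1.0, edgeR), and HES4 with EGF was at -0.32 against control (adjusted p = 0.099, edgeR). After 24 h the median deviation was -0.24 to 0.06 in the libraries of the first run and 0.01 to 0.32 in those of the second. With the same correction, NRARP after 24 h was 0.67 above control with EGF (adjusted p = 0.24, edgeR), and NOTCH1 was at -0.56 with EGF and -0.60 with AII+EGF (adjusted p = 0.068 and 0.10, edgeR).

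**Figure D4:**
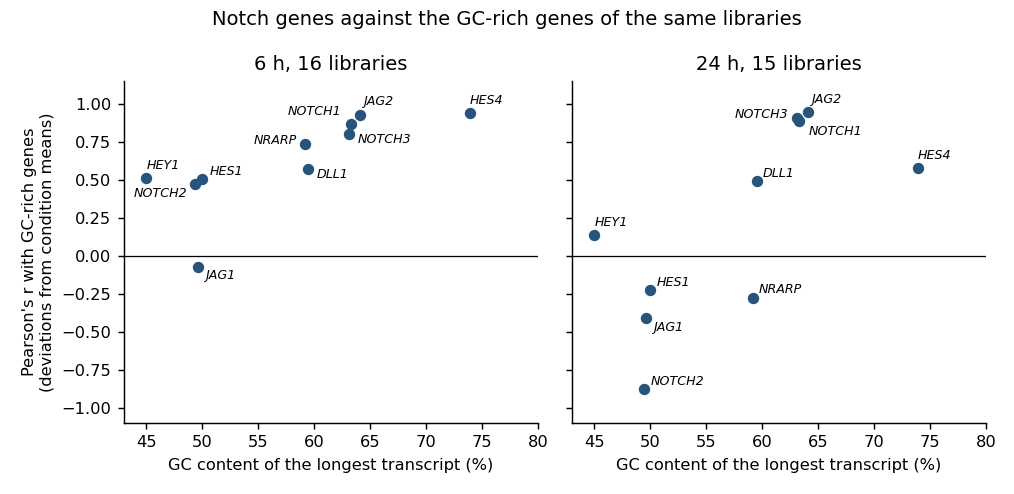
Pearson's r between each Notch gene and the GC-rich genes over the libraries after 6 h (left, 16 libraries) and 24 h (right, 15 libraries), against the GC content of the longest transcript of the member in percent. Each point is 1 gene, HES4, JAG2, NOTCH1 and NOTCH3 lie at 0.80 to 0.94 after 6 h, and NOTCH2 lies at -0.88 after 24 h.

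The rest of the pathway was read from 59 further genes by role, of which 51 were tested after 6 h and 54 after 24 h. With EGF after 6 h 1 passed the adjusted p upward and 1 downward, with AII+EGF 5 upward and 0 downward, and for AII+EGF against AII 3 upward and 2 downward, in edgeR. Of all genes 5.97%, 6.1% and 5.93% passed in these comparisons, so the counts among the 51 are near the background. AII passed 0 genes, with 3 upward and 0 downward at an unadjusted p under 0.05, which 4.54% of all genes had. The median log2 fold change of these genes was -0.02 with EGF and 0.05 with AII+EGF, beside -0.01 for all genes in both. PSEN2 and NEURL1 met the full rule, and the other genes named here were chosen after their values were seen. After 24 h 0 genes passed with AII, EGF or AII+EGF against control or with AII+EGF against AII. At an unadjusted p under 0.05 there were 2 upward and 2 downward with EGF, against 8.48% of all genes. With AII+EGF there were 0 and 2, against 5.4% of all genes. The other comparisons held 0 and 0, against 2.49% for AII and 4.28% for AII+EGF against AII.

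Of 9 genes of receptor cleavage, PSEN2, a catalytic subunit of gamma-secretase, rose after 6 h. Its control level of 11.1 ± 0.714 FPM compares with 17.6 ± 4.27 FPM after EGF and 18.7 ± 2.27 FPM after the combined stimulus (SD, n = 4 each). The rises were 0.67 (standard error 0.16, adjusted p = 0.014) and 0.75 (standard error 0.17, adjusted p = 0.0064) in edgeR and met the full rule. FURIN, the protease that matures the receptors, rose from 63.8 ± 4.36 to 87.5 ± 1.89 FPM with AII+EGF (0.45, adjusted p = 0.0021, edgeR). With EGF alone FURIN was 0.27 higher (adjusted p = 0.076, edgeR), which passed in DESeq2. NCSTN, another gamma-secretase subunit, was lower with AII+EGF than with AII (-0.29, adjusted p = 0.038, edgeR). PSEN2 was also higher with AII+EGF than with AII (0.91, adjusted p = 0.0013, edgeR).

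Of the genes that modify receptors and ligands, NEURL1, a ubiquitin ligase for Notch ligands, rose from 3.07 ± 0.779 FPM to 5.60 ± 1.34 with AII+EGF and met the full rule (0.86, standard error 0.24, adjusted p = 0.035, edgeR). LFNG, a glycosyltransferase that tunes which ligand a receptor answers, was at 1.92 ± 0.532 FPM in control and at 3.89 ± 0.867 FPM in the AII+EGF libraries (difference 1.00, standard error 0.30, adjusted p = 0.0499, edgeR), under the limit of 5 FPM, and it did not pass in DESeq2. POGLUT1, which adds O-glucose to the receptors, was lower with AII+EGF than with AII (-0.37, adjusted p = 0.033, edgeR), and NUMBL, a relative of the Notch antagonist NUMB, was higher (0.55, adjusted p = 0.021, edgeR). Of 12 corepressors, TLE1 was lower with EGF (-0.36, adjusted p = 0.016, edgeR) and TLE3 higher with AII+EGF (0.25, adjusted p = 0.028, edgeR), both below 1.5-fold. TLE1 was at -0.16 with AII+EGF (adjusted p = 0.36, edgeR) and TLE3 at 0.15 with EGF (adjusted p = 0.22, edgeR). A pass in 1 comparison and not in another is no difference between them, and AII+EGF against EGF passed 0% of genes.

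**Figure D5:**
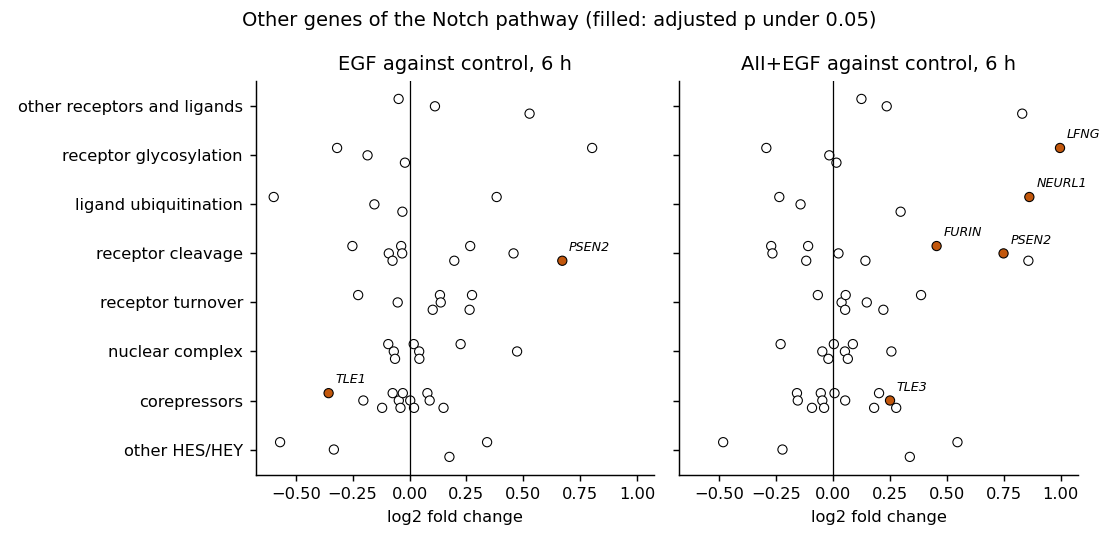
Log2 fold changes after 6 h of the other tested genes of the Notch pathway by role, with EGF (left) and AII+EGF (right) against control. Each point is 1 gene, filled points passed an adjusted p of 0.05 in edgeR, and these are PSEN2 and TLE1 with EGF and PSEN2, FURIN, NEURL1, LFNG and TLE3 with AII+EGF.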

How the data were processed

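RNA of AT1R-transfected HEK293 cells was measured in 32 labelled libraries, of which 31 had a mapped column. Library b08 (AII+EGF, 24 h) had no mapped column and was not analysed here. All columns were mapped (0 left over). Per the methods and labels, the authors depleted ribosomal RNA, sequenced paired ends, trimmed with Trim Galore and cutadapt 1.8.1, mapped to hg19 with TopHat2 2.0.14 (the series text names HISAT2) and counted with featureCounts 1.4.6. The authors deposited raw counts per gene. The strand setting is not given in the sources used here, and of the 24 h columns 8 carry the word filtered in their names and 7 do not, with no reason given.

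From the counts, edgeR 4.0.16 (R 4.3.3) gave TMM factors and quasi-likelihood tests, separately for each time point with all 4 conditions, after filterByExpr, with p-values adjusted over all genes. The 24 h minus 6 h differences came from a joint fit. FPM are counts per 1000000 after TMM, and FPM per kb divide by the exon length in GENCODE on GRCh37. The call rule follows the study's thresholds. All pairs of libraries of a condition differed by more than sampling noise (the lowest chi-square per gene was 2.07). The fits were tested on simulated counts. There a log2 change of 0.5 between control and EGF passed the adjusted p for 60% of changed genes after 6 h. After 24 h it passed for 18%, so most changes of that size would be missed at this time point. Groups came from the labels, replicate numbers follow sample order and only name libraries, and the 2 runs are the passes of library numbers. Counting error limits the genes with few counts. The rule for named genes covered all 10 members, pathway genes called against control, AGTR1 and EGR1 as checks, and the 3 genes most similar to each member called after 6 h. No member was called, NRARP was used in its place, and the other pathway genes and markers named with values were chosen after their values were seen. The members and lists were chosen with earlier results of these data known.

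Alternatives were DESeq2 1.42.0, its size factors, no count filter, other thresholds, the run as a block, each run alone, protein-coding genes only, each library left out, and, added after seeing the data, a GC offset (96.9% of tested genes had a GC value) with and without the block.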

Additional observations from a re-analysis of the deposited data

Results flagged for a closer look

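Of 70 groups of 4 libraries (10 members in 7 groups), 3 held a library far from the other 3, where chance gives about 1 in 20 groups, or 3.5. The value given is the distance of the extreme library from its neighbour as a share of the group's range, judged by Dixon's critical value. NOTCH2 was low in EGF replicate 1 after 6 h (577 FPM, the nearest library at 632 FPM, value 0.905). NOTCH3 was high in AII replicate 3 after 6 h (109 FPM against 76.0 FPM in the nearest, value 0.865), and so was JAG2 in the same library (62.2 FPM against 43.6 FPM, value 0.885). In AII replicate 3 the median log2 deviation of the GC-rich genes was 0.25, the highest of its condition, and in EGF replicate 1 it was -0.26, the lowest of its condition. Its part in these values was not tested.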

How the results depend on the processing

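No paired analysis was possible because replicate numbers are missing from the labels. Of 732 recomputed counts of members, 713 were the same as the main count, 5 were lower and 14 higher. Most main counts were 0 and could not become lower, so this share says little about robustness. Single members were judged by the adjusted p alone, not by the full rule. Of 527 recomputed values of single members 515 stayed, 5 no longer passed the adjusted p and 7 newly passed it, with 0 reversed. By the adjusted p alone, 1 member (NRARP) was called with EGF, with AII+EGF and for AII+EGF against AII after 6 h, and with the second run only 1 member was called with AII+EGF. With no low-count filter the adjusted p passed 2 members with EGF (HES4 beside NRARP) and 2 with AII+EGF (NOTCH3 beside NRARP) after 6 h, where 3.33% and 2.99% of all genes passed. After 24 h NRARP was then called with EGF (1 member) and for AII+EGF against AII (1 member), where 0.122% and 0.115% of all genes were called. The adjusted p passed 0 members in these 3 comparisons after 6 h with the first run only, 0 for AII+EGF against AII with the second run only, and 0 with EGF at an FDR of 0.01. Leaving out each library in turn gave 1 to 2 members for AII+EGF against AII after 6 h, 2 without AII replicate 3 (NOTCH3, 0.40), where 6.26% of all genes passed. With a GC offset and the run as a block, chosen after seeing the data, 2 members passed with AII+EGF after 6 h, where 10.5% of all genes passed (NOTCH3 beside NRARP, 0.25, adjusted p = 0.030, edgeR), and 2 with EGF after 24 h, where 0.424% passed, NOTCH1 (-0.56, adjusted p = 0.043) and NRARP (0.63, adjusted p = 0.030) in edgeR, of which NRARP met the full rule (1 member). The causes were not tested. The adjusted p of NRARP over the left-out libraries after 6 h was 0.0064 to 0.044 for the EGF comparison, and for AII+EGF 0.00065 to 0.0095 (edgeR). Depth limits DLL1 most, with 59 to 133 counts per library after 6 h.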

Other observations

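Among the receptors and ligands outside the list, DLL3 was at 5.58 to 9.48 FPM and DLK2 at 6.16 to 11.3 FPM over the 16 libraries after 6 h, NOTCH4 at 0.797 to 9.17 FPM and DLL4 at no more than 1.89 FPM, while DLK1, an imprinted atypical ligand, had at most 2 counts in any library. Of the other HES and HEY genes, HEYL (4.96 to 11.8 FPM), HES6 (3.83 to 13.1 FPM), HES2 (3.76 to 7.86 FPM) and HEY2 (2.33 to 5.46 FPM) were tested after 6 h, and none of them passed with EGF or AII+EGF against control. HES5, a target gene of Notch in neural progenitors, did not exceed 1.76 FPM after 6 h, and HES3 had at most 1 count.

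Of the 8 HEK293 markers tested after 6 h, 2 passed the adjusted p with EGF (NEFM and LIN28B) and 3 with AII+EGF (these and KRT18). All went upward, and they are named after their values were seen. Of all genes 5.97% passed with EGF and 6.1% with AII+EGF. NEFM, a neurofilament subunit, rose, the controls holding 443 ± 68.5 FPM, the EGF libraries 670.2 ± 61.7 FPM and the AII+EGF libraries 737 ± 53.4 FPM (SD, n = 4 each; 0.60 and 0.73 on the log2 scale, adjusted p = 0.00040 and 3.3e-05, edgeR). LIN28B, an RNA-binding protein of progenitor cells, rose from 127 ± 12.2 to 186 ± 10.99 and 174 ± 9.86 FPM (0.55 and 0.45, adjusted p = 0.00026 and 0.0015, edgeR). KRT18, a keratin, rose with AII+EGF (0.91, adjusted p = 0.019, edgeR). VIM, with a log2 difference of -0.21 with EGF (adjusted p = 0.052, edgeR), and NEFL, with -0.11 (adjusted p = 0.57, edgeR), did not pass.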
